A study of Homo sapiens with 9 samples.

Results

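OLR1, PRR9, DCLK1, G0S2, MOB3B, TMEM255A and DSP are 7 genes outside the cytokine families whose mRNA was far higher in U2OS cells after knockdown of NFKB2, of RELB, or of both. They were found by symbol in the count tables and are 7 of the 44608 entries listed there. All 7 were among the 14815 genes with enough reads to be tested. They were selected on their increase over control in these same libraries, with no stated threshold, so their differences between groups are given below as a description, without a test. In 5 of the genes all libraries of both knockdowns stood above control, which follows from how the genes were selected. Over all genes tested, 18.8% stood so in the NFKB2 knockdown and 12.3% in the RELB knockdown. The share that did so in both at once was not counted. DSP, among the 5, was only 1.75-fold higher after NFKB2 siRNA. G0S2 was higher in the NFKB2 knockdown and lower on average in the RELB knockdown. MOB3B was higher in the RELB knockdown and not in the NFKB2 knockdown.

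U2OS is a human osteosarcoma cell line. All cells were grown in high-glucose DMEM with fetal bovine serum and transfected with siRNA at 75 nM by Lipofectamine RNAiMAX, and RNA was taken 48 h later. The 3 groups received a non-silencing siRNA (siNS), siRNA against NFKB2 (siNFKB2) or siRNA against RELB (siRELB), with 3 libraries each, made from oligo-dT-selected mRNA. The cells of every group therefore share the same transfection and differ by the siRNA named, and the number of siRNA sequences per target was not given in the sources used here. The labels do not say whether replicates were separate cultures, so p-values below reflect only how much libraries of a group vary, and that variation may be technical.

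NFKB2 and RELB encode partners of the non-canonical NF-kB pathway, in which the NFKB2 precursor is cut to its short form and enters the nucleus mainly together with RELB. The precursor also holds other NF-kB subunits in the cytoplasm, so either protein can bear on genes that are switched on or kept low by the pathway. The 7 genes encode proteins of unrelated kinds: a scavenger receptor (OLR1), a protein from the cluster of skin barrier genes (PRR9), a microtubule-binding kinase (DCLK1), an inhibitor of fat breakdown (G0S2), a MOB-family kinase regulator (MOB3B), a transmembrane protein (TMEM255A) and a desmosome plaque protein (DSP).

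Upstream sequence is shown for the 3 genes whose most upstream listed start has an NF-kB or AP-1 motif in the 250 bases before it. These motifs were chosen because NF-kB is the factor family targeted here and AP-1 is a frequent partner of it at inflammatory genes. The windows come from RefSeq (GRCh38.p14), which held entries for 6 of the 7 genes with 8 start sites. Each run is 5′ to 3′ on the strand of the gene and ends at the base before the start. Capitals mark a match to the NF-kB consensus, to AP-1 (TGACTCA or TGAGTCA) or to TATAAA, searched on both strands. The windows lie at chr1:153217334-153217583 on the plus strand for PRR9, chr13:36131940-36132189 on the minus strand for DCLK1 and chr9:27529815-27530064 on the minus strand for MOB3B.
PRR9: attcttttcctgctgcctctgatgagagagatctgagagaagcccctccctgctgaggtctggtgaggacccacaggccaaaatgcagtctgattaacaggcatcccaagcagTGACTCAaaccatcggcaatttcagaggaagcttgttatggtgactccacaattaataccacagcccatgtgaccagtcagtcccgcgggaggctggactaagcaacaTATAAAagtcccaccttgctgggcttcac
DCLK1: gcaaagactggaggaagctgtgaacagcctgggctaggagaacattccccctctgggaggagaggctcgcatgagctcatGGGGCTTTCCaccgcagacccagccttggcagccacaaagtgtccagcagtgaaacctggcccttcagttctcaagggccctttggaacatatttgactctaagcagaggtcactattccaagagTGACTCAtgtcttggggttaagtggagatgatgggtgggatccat
MOB3B: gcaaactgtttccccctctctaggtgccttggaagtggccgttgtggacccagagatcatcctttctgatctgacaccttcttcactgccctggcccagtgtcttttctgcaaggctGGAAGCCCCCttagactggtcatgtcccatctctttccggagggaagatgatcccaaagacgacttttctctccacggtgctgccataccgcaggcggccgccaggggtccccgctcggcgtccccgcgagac
The PRR9 window held TGACTCA at 137 to 131 bases before the start and TATAAA at 29 to 24 bases. The DCLK1 window held an NF-kB match at 170 to 161 bases and TGACTCA at 45 to 39 bases. In MOB3B the capitals mark an NF-kB match on the opposite strand, at 133 to 124 bases. A further DCLK1 start inside the gene had TGAGTCA at 224 to 218 bases before it, and the remaining 4 windows, those of G0S2, TMEM255A, DSP and a DCLK1 start, held none of the 3 motifs. That DCLK1 start without a match has its window at chr13:36131383-36131632. It lies between the start of the printed window and the upstream end of the gene in GENCODE 29 (36131306), so it is the nearer of these starts to that end. No match overlapped another. The search covered 300 bases, 250 before and 50 after each start. Among all 35116 RefSeq promoter windows of that length, 11.3% held the NF-kB consensus, 4.95% the AP-1 motif and 11.5% TATAAA. A match describes letters only, and binding was not measured.

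Sequencing depth was 15011789 to 19279572 counts per library, and mitochondrial ribosomal RNA took 0.379% to 2.68% of counts. The targeted genes were checked first. NFKB2 stood at 80.7, 126.5 and 117.2 counts per 1000000 (CPM) in siNS replicates 1 to 3 and at 5.26, 22.9 and 48.4 CPM in siNFKB2. It fell by 2.09 on the log2 scale (edgeR quasi-likelihood test, Benjamini-Hochberg adjusted p = 0.021). RELB stood at 17.1, 30.3 and 34.1 CPM in siNS and at 2.66, 4.66 and 5.36 CPM in siRELB, and fell by 2.69 on the log2 scale (edgeR adjusted p = 0.00881). The libraries did not overlap in either case, so the labels hold. The NFKB2 value was -2.93 without siNFKB2 replicate 3, a fold 1.79 times as large. Its call was lost in a fit of only the 6 libraries compared (adjusted p = 0.0502) and without siNS replicate 2 (0.0532), siNS replicate 3 (0.0667) or siNFKB2 replicate 2 (0.0936), and the RELB call without siNS replicate 3 (0.0575) or siRELB replicate 2 (0.0591). Bone and mesenchymal genes summed to 4533 to 5920 CPM in siNS, 4210 to 4520 in siNFKB2 and 4244 to 5238 in siRELB, with 9 of 13 tested and TWIST1 at 0. Nearly all of that sum was VIM, SPARC and COL1A1. In siNS, siNFKB2 and siRELB these averaged 2942, 2361 and 2338 CPM (VIM), 1446, 1380 and 1496 CPM (SPARC) and 875.1, 551.7 and 912.2 CPM (COL1A1). VIM did not pass the test in either knockdown (edgeR adjusted p = 0.0577 and 0.166). The osteoblast genes SP7 and BGLAP had means of at most 0.0351 and 0.0208 CPM. Of the tested bone genes ALPL (5.06 to 20.6 CPM), SPP1 (10.6 to 24.8 CPM) and PHEX (0.465 to 1.68 CPM) rose after NFKB2 siRNA (edgeR adjusted p = 0.00495, 0.0328 and 0.00176), while RUNX2 (11.8 to 4.59 CPM), PRRX1 (5.39 to 0.869 CPM), COL1A1 and COL1A2 fell (0.000941, 0.00125, 0.0142 and 0.0397). The PRRX1 log2 fold change of -2.60 became -3.20 without siNFKB2 replicate 1. The SPP1 call was lost without siNS replicate 2 (0.101) or 3 (0.126) or siNFKB2 replicate 1 (0.0922) or 2 (0.0766), the COL1A1 call without siNS replicate 3 (0.0502), and the COL1A2 call in 12 of 16 alternative analyses.

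All values below are CPM scaled by TMM normalization, and a log2 fold change is the fitted difference of edgeR's model with its standard error (SE). Both knockdowns are compared with the same 3 siNS libraries, so their differences are not independent. In bulk RNA, more cells with a transcript and more transcript per cell cannot be told apart.

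**Figure D1:**
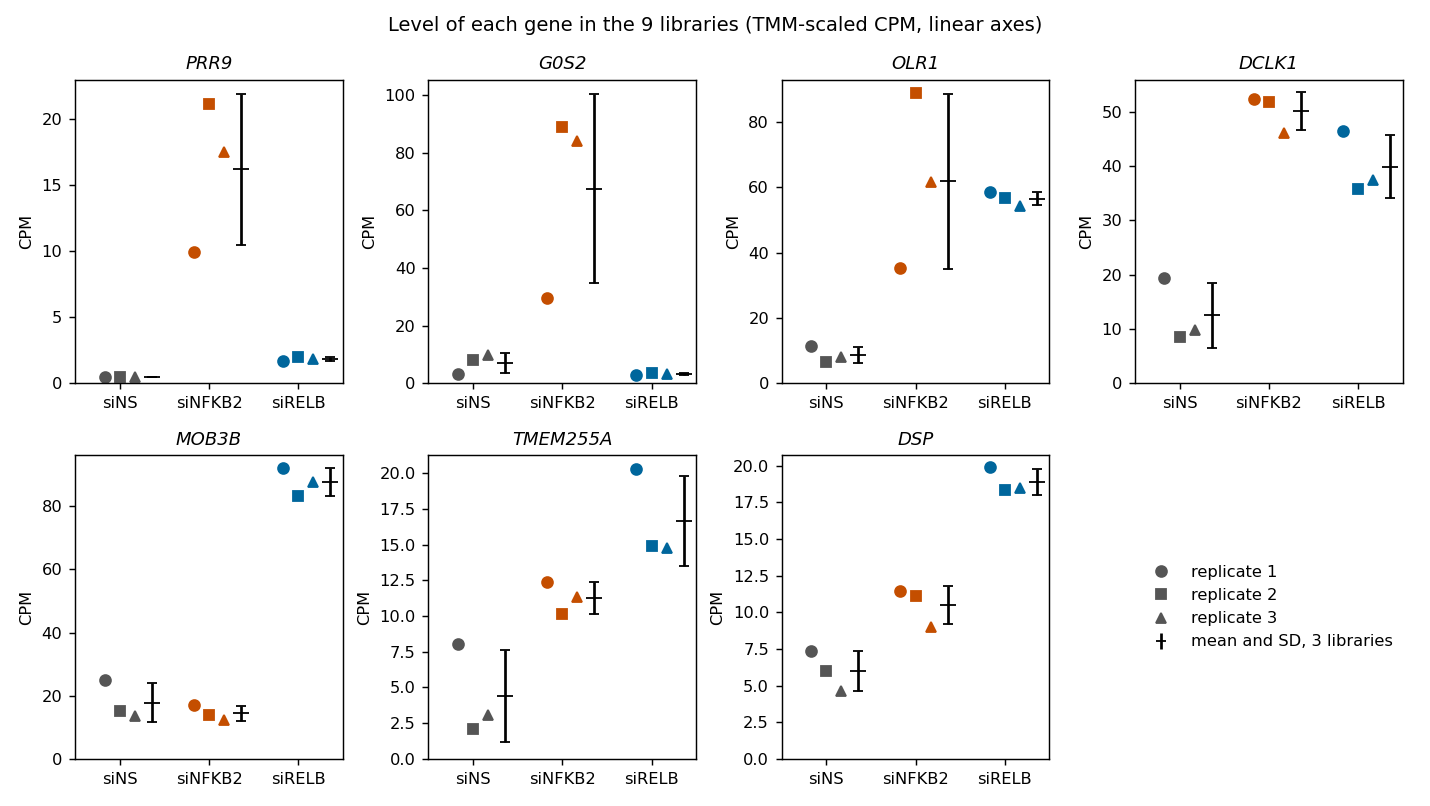
Level of the 7 genes in each library, as TMM-scaled CPM on linear axes that start at 0, with a panel for each gene; points are libraries by group and replicate number, and bars are the mean and SD of 3 libraries. PRR9 and G0S2 are highest in siNFKB2, MOB3B, TMEM255A and DSP in siRELB, and OLR1 and DCLK1 stand above siNS in all 6 knockdown libraries.

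PRR9 and G0S2 were the genes that stood much higher after NFKB2 siRNA than after RELB siRNA. PRR9 encodes a small proline-rich protein and lies in the epidermal differentiation complex, a cluster of genes for the outer layer of skin, at chr1:153217584-153219317 on the plus strand (GRCh38, GENCODE 29). Its level was 0.473, 0.500 and 0.494 CPM in siNS, from counts of 9, 8 and 9. In siNFKB2 it was 9.93, 21.1 and 17.5 CPM, from counts of 185, 364 and 264. In siRELB it was 1.69, 2.01 and 1.81 CPM, from counts of 33, 37 and 33. Every siNFKB2 library stood above every siRELB library, and every siRELB library above every siNS library. Mean levels were 0.489 ± 0.0141, 16.2 ± 5.71 and 1.83 ± 0.160 CPM (SD, n = 3), which makes siNFKB2 33.1-fold and siRELB 3.75-fold the siNS mean. The log2 fold changes were 5.03 (SE 0.326) and 1.89 (SE 0.352), rank 3 and rank 33 from the top among all genes tested. A count of 9 has an exact Poisson 95% interval of 4.12 to 17.1, for counting error only, so the siNS level and the folds taken against it are imprecise.

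G0S2 encodes an inhibitor of the triglyceride lipase PNPLA2 and so slows fat breakdown, and lies at chr1:209675420-209676388 on the plus strand. Its level was 3.31, 8.07 and 9.66 CPM in siNS. It was 29.6, 88.9 and 84.0 CPM in siNFKB2. After RELB siRNA it was 2.97, 3.42 and 3.28 CPM. The siNFKB2 libraries stood above all others, whereas siNS replicate 1 lay within the siRELB range and the other two siNS libraries above it. The means were 7.01 ± 3.30, 67.5 ± 32.9 and 3.22 ± 0.228 CPM (SD, n = 3). G0S2 was thus 9.63-fold higher in siNFKB2 than in siNS, with a log2 fold change of 3.27 (SE 0.451). In siRELB its mean was 2.18-fold lower than in siNS, with a log2 fold change of -1.12 (SE 0.468), rank 14691 of 14815 from the top. Between the knockdowns it differed by 4.39 on the log2 scale (SE 0.483), or 21.0-fold between the means.

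OLR1 and DCLK1 were high after either siRNA. OLR1 encodes LOX-1, a C-type lectin-like scavenger receptor that takes up oxidized low-density lipoprotein, and lies among the natural killer lectin genes at chr12:10158301-10172138 on the minus strand. It stood at 11.3, 6.57 and 8.07 CPM in siNS. In siNFKB2 it stood at 35.2, 88.8 and 61.6 CPM, and in siRELB at 58.5, 56.9 and 54.3 CPM. All 6 knockdown libraries were above all siNS libraries, and the siRELB values fell inside the wider siNFKB2 range. Means were 8.65 ± 2.42, 61.9 ± 26.8 and 56.5 ± 2.08 CPM (SD, n = 3), 7.16-fold and 6.54-fold the siNS mean. The log2 fold changes were 2.83 (SE 0.315) and 2.7 (SE 0.314), rank 52 in siNFKB2 and rank 6 in siRELB. The difference between the knockdowns was 0.13 on the log2 scale (SE 0.287) and turned to -0.20 without siNFKB2 replicate 2.

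DCLK1 encodes a doublecortin-like kinase that binds microtubules and is known from neurons and from tuft cells of the gut, and lies at chr13:35768652-36131306 on the minus strand. Its level was 19.4, 8.44 and 9.72 CPM in siNS. It was 52.3, 51.8 and 46.1 CPM in siNFKB2 and 46.4, 35.8 and 37.4 CPM in siRELB. No siNS library reached the knockdown libraries, and the knockdowns overlapped only through the highest siRELB and the lowest siNFKB2 library. Means of 12.5 ± 6.00, 50.1 ± 3.43 and 39.9 ± 5.72 CPM (SD, n = 3) put siNFKB2 at 4.0-fold and siRELB at 3.19-fold the siNS mean. The log2 fold changes were 2.00 (SE 0.274) and 1.67 (SE 0.272), and the knockdowns differed by 0.33 (SE 0.260).

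MOB3B, TMEM255A and DSP were highest after RELB siRNA. MOB3B belongs to the MOB family, whose better known members activate the LATS and NDR kinases, and lies at chr9:27325209-27529781 on the minus strand. Its level was 24.9, 15.1 and 13.5 CPM in siNS. It was 17.1, 13.8 and 12.4 CPM in siNFKB2 and 92.1, 83.3 and 87.7 CPM in siRELB. The siRELB libraries stood far above the other 6, while siNS and siNFKB2 overlapped. The means were 17.8 ± 6.19, 14.4 ± 2.42 and 87.7 ± 4.39 CPM (SD, n = 3), a 4.92-fold higher level in siRELB than in siNS and 6.07-fold higher than in siNFKB2. An antisense gene, AL451123.1, shares 3.20% of the exonic bases of MOB3B, and without strand its reads cannot be told apart from those of MOB3B. The log2 fold change of MOB3B was 2.30 (SE 0.224) in siRELB, rank 13 of all genes tested, and -0.30 (SE 0.221) in siNFKB2. The latter turned to 0.018 without siNS replicate 1.

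TMEM255A, a membrane protein gene whose function is little described, lies at chrX:120258650-120311556 on the minus strand. It stood at 8.05, 2.06 and 3.07 CPM in siNS. It was 12.4, 10.2 and 11.3 CPM in siNFKB2 and 20.3, 14.9 and 14.8 CPM in siRELB. The groups did not overlap and were ordered siNS, siNFKB2, siRELB, with siNS replicate 1 well above the other siNS libraries. The means were 4.39 ± 3.20, 11.3 ± 1.10 and 16.7 ± 3.14 CPM (SD, n = 3), 2.57-fold and 3.79-fold the siNS mean. The log2 fold changes of 1.35 (SE 0.393) and 1.91 (SE 0.393) became 2.12 and 2.69 without siNS replicate 1, a fold 1.71 and 1.72 times as large.

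DSP encodes desmoplakin, which ties the desmosomes between cells to intermediate filaments, and lies at chr6:7541575-7586717 on the plus strand. Its level was 7.36, 6.00 and 4.61 CPM in siNS. It was 11.4, 11.1 and 9.0 CPM in siNFKB2 and 19.9, 18.3 and 18.5 CPM in siRELB. The 3 groups were separate and in the same order as for TMEM255A. Means of 5.99 ± 1.38, 10.5 ± 1.32 and 18.9 ± 0.881 CPM (SD, n = 3) were 1.75-fold and 3.16-fold the siNS level. The log2 fold changes were 0.81 (SE 0.186) and 1.66 (SE 0.186). The siNFKB2 value was the smallest increase among the 6 genes that were higher in that knockdown, at rank 1188.

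**Figure D2:**
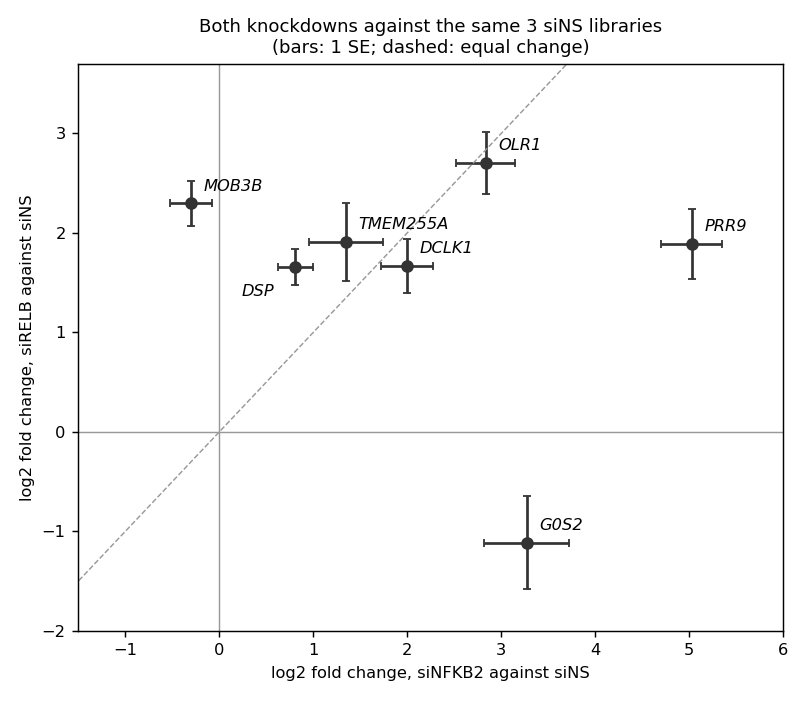
Fitted log2 fold change of the 7 genes after NFKB2 siRNA (horizontal) and after RELB siRNA (vertical), both against the same 3 siNS libraries, with bars of 1 SE and a dashed line of equal change. OLR1 and DCLK1 lie near the line, PRR9 (5.03 and 1.89) and G0S2 (3.27 and -1.12) far to its right, and MOB3B (-0.30 and 2.30) far to its left.

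Across the 7 genes, all siNFKB2 libraries stood above all siNS libraries for 6, MOB3B being the exception, where 18.8% of all genes tested did so. All siRELB libraries stood above all siNS libraries for 6, G0S2 being the exception, against 12.3% of all genes. Both counts follow from how the genes were selected. Between the knockdowns, PRR9 and G0S2 were higher in every siNFKB2 library (22.3% of all genes) and MOB3B, TMEM255A and DSP were lower in every one (23.6%). Per length of exon, the mean siNS level ran from 0.398 CPM per kb for PRR9 and 0.594 for DSP, through 0.871 for DCLK1, 1.14 for TMEM255A, 2.52 for MOB3B and 2.83 for OLR1, to 8.10 for G0S2. In siNFKB2 the order by level per length was led by G0S2 at 78.0, OLR1 at 20.2 and PRR9 at 13.2 CPM per kb. In siRELB it was led by OLR1 at 18.5 and MOB3B at 12.4 CPM per kb.

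Within groups, the libraries numbered 1 stood apart for these genes. The siNS replicate 1 library had the highest level of its group for OLR1, DCLK1, MOB3B, TMEM255A and DSP and the lowest for PRR9 and G0S2. Its deviations from the group mean were -0.92 to 1.09 on the log2 scale. For PRR9 the deviation was only -0.038, from siNS counts of 9, 8 and 9, so its order in siNS is not informative. In siNFKB2, replicate 1 was lowest for OLR1, PRR9 and G0S2 and highest for the other 4 genes. That library also had the lowest NFKB2 of all, at 5.26 CPM, and the lowest RELB of its group, at 21.1 CPM. In siRELB, replicate 1 was again highest for OLR1, DCLK1, MOB3B, TMEM255A and DSP and lowest for PRR9 and G0S2, the same split as in siNS. The siRELB libraries were closer together, replicate 1 deviating by -0.11 to 0.30, and PRR9 had 33 counts in both replicates 1 and 3. Whether the level of NFKB2 within the siNFKB2 group bears on PRR9, G0S2 or OLR1 was not tested.

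The pattern of each gene over the 9 libraries was set beside that of 13225 other genes by the root mean square (RMS) difference of log2 CPM, each gene set to its own siNS mean. For DCLK1 the closest was SMIM15, at an RMS difference of 0.140, which went from 44.7 CPM in siNS to 182.1 in siNFKB2 and 126.5 in siRELB. DSP was closest to ABCC9 (0.174), then to CLDN1 (0.202), a tight junction gene at 36.1, 62.9 and 98.9 CPM in siNS, siNFKB2 and siRELB. MOB3B was closest to GBP1 (0.280), SLC16A12 (0.440) and SCEL (0.468). For PRR9 the nearest were the cytokine and receptor genes IL24 (0.487), IL1RL1 (0.534) and CXCL8 (0.709). The RMS difference is not scaled to the size of a gene's change, so its values do not rank how good the matches of different genes are. G0S2 was nearest to CSF2 (0.548), MMP9 (0.638) and TNFSF8 (0.657). TMEM255A was nearest to ACVR1C (0.395), LOC105376387 (0.435) and C4BPB (0.476). OLR1 had the most distant nearest gene, TMEM52B at 0.678, a gene that overlaps it. Among the 7 themselves, DCLK1 and TMEM255A were closest at 0.413 and PRR9 and MOB3B farthest at 2.92. With each gene set to its mean over all 9 libraries instead, 1 to 3 of the 3 nearest genes were the same, the 1 being CSF2 for G0S2.

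The genomic neighbours differed between the 7. Taking tested genes within 200 kb, or the nearest on each side, 6 of 21 neighbours rose and 0 fell after NFKB2 siRNA, and 2 rose and 0 fell after RELB siRNA. Within 500 kb, 7 of 51 rose and 0 fell after NFKB2 siRNA, and 2 rose and 0 fell after RELB siRNA. Over all genes tested, 12.6% rose and 13.5% fell after NFKB2 siRNA, and 1.21% rose and 0.81% fell after RELB siRNA (edgeR, adjusted p below 0.05). TMEM52B overlaps OLR1 on the opposite strand and shares none of its exonic bases. It went from 0.535 ± 0.184 CPM in siNS to 1.89 ± 0.694 in siNFKB2 and 3.95 ± 0.140 in siRELB (SD, n = 3; log2 fold changes 1.79 and 2.85, edgeR adjusted p = 0.00457 and 0.00533). TMEM52B was thus higher in siRELB than in siNFKB2 by the means, whereas OLR1 had no clear order of the knockdowns (difference 0.13, SE 0.287, overlapping libraries). Whether the counting used strand is not given in the sources used here, so reads of OLR1 and TMEM52B in introns or beyond annotated ends cannot be told apart. The siRELB call was lost without siNS replicate 3 (adjusted p = 0.0506).

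GABARAPL1, an autophagy gene 40.3 kb from OLR1, rose from 101.3 to 210.8 CPM in siNFKB2 (log2 fold change 1.06, edgeR adjusted p = 0.00056). In siRELB it was at 159.8 CPM (0.66, adjusted p = 0.0357), a call lost without any 1 of siNS replicates 2 (0.111) and 3 (0.152), siNFKB2 replicate 3 (0.0628) and siRELB replicates 2 (0.176) and 3 (0.182). CAMK1G, a kinase gene 61.5 kb from G0S2, had 2, 1 and 3 counts in siNS against 11, 12 and 26 in siNFKB2, and 3, 1 and 3 in siRELB. Its summed count per depth was 8.53-fold higher in siNFKB2 than in siNS, with an exact 95% interval of 3.65 to 24.4 for counting error (edgeR adjusted p = 0.00563). Its fitted log2 fold change of 3.06 became 2.45 without siNFKB2 replicate 3. CAMK1G therefore differed in the same comparison as G0S2. LAMB3, nearer to G0S2 at 22.9 kb, stood at 375.8 CPM in siNS and 564.2 CPM in siNFKB2. It narrowly missed the threshold (0.59, edgeR adjusted p = 0.0538) and passed in 7 of 17 alternative analyses. C9orf72, 16.8 kb from MOB3B, rose from 30.3 to 48.2 CPM in siNFKB2 (0.67, adjusted p = 0.0141), where MOB3B was not higher, and stood at 33.4 CPM in siRELB (0.14, adjusted p = 0.71). That call was lost without siNS replicate 3 (0.0639) or siNFKB2 replicate 2 (0.0657). The remaining calls among the 21 neighbours were CLEC2B near OLR1 (0.37, adjusted p = 0.0469) and SPART near DCLK1 (0.48, adjusted p = 0.0396). Each was lost in 10 of 17 alternative analyses, including without any 1 library other than siNS replicate 1, with adjusted p up to 0.160 and 0.141. Of these 21, the neighbours of TMEM255A, DSP and PRR9 did not pass the test in either knockdown, though some passed in alternative analyses. LAMP2, 116.3 kb from TMEM255A, did so most often. It stood at 183.1, 261.5 and 280.4 CPM in siNS, siNFKB2 and siRELB (0.51, edgeR adjusted p = 0.0564, and 0.61, adjusted p = 0.115). LAMP2 passed in 5 of 17 alternative analyses for siNFKB2 and 4 of 17 for siRELB. Within 500 kb the further call was RREB1, 289.6 kb from DSP. It rose from 28.0 to 38.0 CPM in siNFKB2 (0.44, edgeR adjusted p = 0.0346) and did not pass in siRELB (0.25, adjusted p = 0.381). SNRNP48, 3.48 kb from DSP, stood at 26.7, 27.0 and 27.4 CPM, and the nearest tested gene to PRR9 was IVL, 305.7 kb away.

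**Figure D3:**
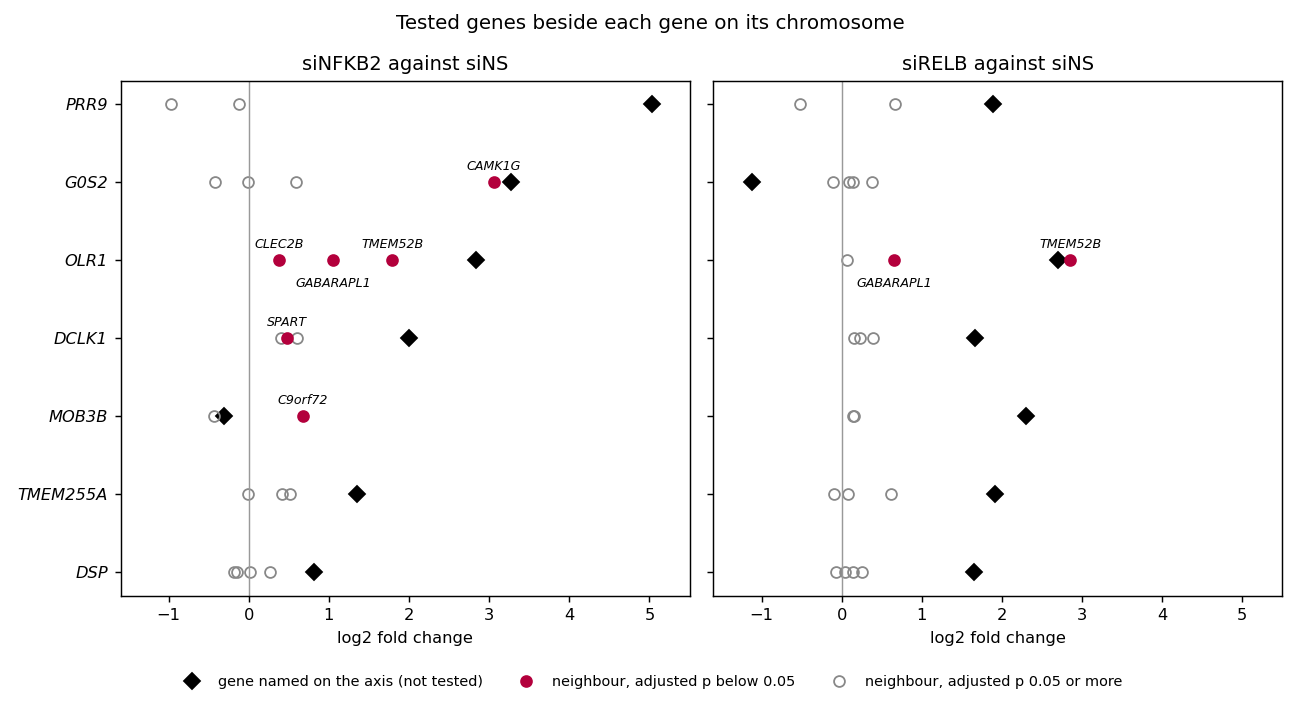
Fitted log2 fold change of the tested genes within 200 kb of each of the 7 genes or nearest on each side (circles, filled where edgeR's adjusted p was below 0.05 and named) and of the gene itself (diamonds, not tested), after NFKB2 siRNA at left and RELB siRNA at right. Filled circles lie beside OLR1, G0S2, DCLK1 and MOB3B at left and beside OLR1 alone at right.

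Genes of the same pathways, families and clusters were then examined, 221 symbols in 8 lists, of which 129 were tested. After NFKB2 siRNA 24 rose and 18 fell (32.6% called, where 26.1% of all genes were). After RELB siRNA 4 rose and 1 fell (3.88%, against 2.02% of all genes). Between the knockdowns 15 were higher and 18 lower in siNFKB2, where over all genes 12.2% were higher and 14.3% lower. With the replicate number as a block those 33 calls became 67, 36 higher and 31 lower. The siNFKB2 count of 42 became 24 without siNS replicate 3 and 22 without siNFKB2 replicate 2. The siRELB count of 5 became 21 without siNS replicate 1, 3 without siRELB replicate 1 and 2 without siNFKB2 replicate 2 or 3. It was 0 without siNS replicate 2 or 3 or siRELB replicate 2 or 3, where 17 to 24 list genes had an unadjusted p below 0.05 in edgeR, and with all libraries DESeq2 called 12 list genes at an adjusted p below 0.05. Each of the 5 siRELB calls among list genes was thus lost when some single library was left out. The median log2 fold change over all genes tested was -0.00 in siNFKB2 and -0.02 in siRELB.

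Around G0S2, 20 of 30 lipid droplet and lipolysis genes were tested, and 6 rose and 0 fell after NFKB2 siRNA (median 0.16). The 6 calls became 3 without siNS replicate 3. LPIN1, a phosphatidate phosphatase that makes diacylglycerol for fat storage, rose from 69.9 ± 7.15 to 199.6 ± 31.9 CPM (SD, n = 3; log2 fold change 1.51, edgeR adjusted p = 0.000253) and was 74.2 CPM in siRELB. PNPLA3, a lipid droplet enzyme, rose from 7.12 to 15.9 CPM (1.16, adjusted p = 0.00189), and GPAT3, an enzyme of glycerolipid synthesis, rose by 0.63 (adjusted p = 0.00929). Genes of fat oxidation were also among the 6: PPARA (0.87, adjusted p = 0.0136) and CPT1A (1.31, adjusted p = 0.0139), calls that were lost without siNS replicate 3 (0.068 and 0.0576) and, for CPT1A, without siNFKB2 replicate 2 (0.0507). PPARA was about as high in siRELB, at 22.9, 42.0 and 41.4 CPM in siNS, siNFKB2 and siRELB, though it did not pass there (0.85, edgeR adjusted p = 0.078). CPT1A stood at 0.588, 1.47 and 0.607 CPM. PNPLA2, the lipase that G0S2 inhibits, stood at 27.5, 21.1 and 23.0 CPM in siNS, siNFKB2 and siRELB (-0.38, adjusted p = 0.209, and -0.25, adjusted p = 0.579). In siRELB, where G0S2 was low, 1 list gene rose and 0 fell (median 0.06). It was ABHD5, the activator of PNPLA2, from 42.4 to 65.3 CPM (0.62, adjusted p = 0.0315). Its call was lost in 8 of 17 alternative analyses, among them those without siNS replicate 2 or 3, siNFKB2 replicate 2 or 3 or any 1 siRELB library, up to an adjusted p of 0.190 without siNS replicate 3. PNPLA2 and ABHD5 were named after their values were seen. Adipocyte markers were low, with LEP at 0 and 1 of 6 tested. The tested one, PPARG, is also in the lipid droplet list and made up nearly all of their sum (22.4, 21.6 and 28.5 CPM in siNS, siNFKB2 and siRELB, adjusted p = 0.879 and 0.371). The sum was 19.9 to 26.7 CPM in siNS, 18.3 to 27.9 in siNFKB2 and 27.2 to 31.7 in siRELB.

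Around OLR1, 16 of 23 scavenger and lipoprotein receptor genes were tested, and 4 rose and 1 fell after NFKB2 siRNA (median 0.16). The 5 calls became 3 without siNS replicate 3 or siNFKB2 replicate 2. MEGF10, a receptor for engulfing dead cells, rose from 14 to 31.1 CPM (log2 fold change 1.15, edgeR adjusted p = 0.00105). VLDLR, a lipoprotein receptor, rose by 0.78 (adjusted p = 0.00245). MYLIP, a ubiquitin ligase that marks lipoprotein receptors for degradation, rose as well (0.79, adjusted p = 0.0121). The MYLIP call was lost without siNS replicate 3 (0.0505) or siNFKB2 replicate 2 (0.0532). After RELB siRNA, where OLR1 averaged 56.5 CPM, 0 of the 16 passed edgeR's test (3 had an unadjusted p below 0.05, and DESeq2 called 0; median -0.08). Of 19 natural killer lectin genes around OLR1 only 5 were tested. After NFKB2 siRNA CLEC2B alone rose, and after RELB siRNA 0 passed (1 at an unadjusted p below 0.05, 0 in DESeq2). Reads of KLRC2 and KLRC3 are uncertain because the genes are near-identical copies. Blood cell markers were low, with CD3E, LYZ and AIF1 at 0, and summed to 6.12 to 8.25 CPM in siNS, 4.17 to 6.17 in siNFKB2 and 5.85 to 8.04 in siRELB. Most of that sum was HBB, at 5.91, 3.05 and 5.73 CPM in siNS, siNFKB2 and siRELB. HBB, named after its values were seen, fell in siNFKB2 (-0.95, edgeR adjusted p = 0.0331). The call was lost in 6 of 16 alternative analyses. CSF1R (0.81, adjusted p = 0.2455) and SPI1 (0.74, adjusted p = 0.31) did not pass edgeR's test there.

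Around PRR9, 13 of 53 genes of the epidermal differentiation complex were tested, and 1 rose and 0 fell in each knockdown (median -0.04 in siNFKB2 and -0.33 in siRELB). That gene was HRNR, a filaggrin-related protein, from 1.08 CPM in siNS to 2.99 in siNFKB2 (log2 fold change 1.46, edgeR adjusted p = 0.00441) and 3.84 in siRELB (1.81, adjusted p = 0.0132). The siRELB call was lost without siNS replicate 2 (0.0571) or 3 (0.0958) or siRELB replicate 2 (0.0801) or 3 (0.0651). FLG, filaggrin itself, stood at 8.51, 15.3 and 19.8 CPM (0.84, adjusted p = 0.0602, and 1.22, adjusted p = 0.0701). IVL, involucrin, did not pass the test in either knockdown (-0.97, adjusted p = 0.202, and 0.67, adjusted p = 0.508). The other 40 genes of the complex had too few reads to be tested.

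Around DSP, 17 of 30 desmosome, plakin and keratin genes were tested, and 1 rose and 7 fell after NFKB2 siRNA, with a median of -0.32. The 8 calls became 4 without siNS replicate 3 and 5 without siNFKB2 replicate 2 or 3 or siRELB replicate 2 or 3. The filament genes KRT80 (451.6 to 162.3 CPM, log2 fold change -1.48, edgeR adjusted p = 0.000439), KRT8 (266.9 to 139.2 CPM, -0.94, adjusted p = 0.0015) and KRT81 (405.7 to 244.7 CPM, -0.73, adjusted p = 0.00343) fell. KRT8 and KRT81 have pseudogenes or close copies, so their counts are uncertain. PKP3, a desmosome plaque protein, fell by 0.96 on the log2 scale (adjusted p = 0.0126), a call lost without siNS replicate 3 (0.0574). DST, a plakin like DSP, was the gene that rose, from 249.0 to 417.8 CPM (0.75, adjusted p = 0.00526). In siRELB, where DSP was highest, 0 of the 17 passed edgeR's test (6 had an unadjusted p below 0.05, and DESeq2 called 2; median 0.01). JUP, the plakoglobin that binds DSP, was named after its values were seen and stood at 12, 8.78 and 18.0 CPM. It fell in siNFKB2 against siNS (-0.45, edgeR adjusted p = 0.0348), opposite in sign to DSP. That call was lost in 9 of 17 alternative analyses. In siRELB JUP did not pass the test against siNS (0.58, edgeR adjusted p = 0.0585). It was lower in siNFKB2 than in siRELB by 1.03 on the log2 scale (adjusted p = 0.000683). Epithelial and keratinocyte markers were low beside these genes: KRT1 and CLDN7 were at 0, 4 of 12 were tested, and the sum was 37.7 to 63.9 CPM in siNS, 40.4 to 82.0 in siNFKB2 and 35.9 to 54.3 in siRELB. Most of that sum was KRT10, at 38.7, 52.95 and 30.5 CPM in siNS, siNFKB2 and siRELB, which did not pass the test (edgeR adjusted p = 0.318 and 0.629). Among the tested markers CDH1, E-cadherin, rose from 1.47 to 2.60 CPM in siNFKB2 (0.82, adjusted p = 0.0301) and to 3.34 CPM in siRELB (1.18, adjusted p = 0.0352), whereas CLDN4, a tight junction gene, fell from 10.8 to 6.16 CPM in siNFKB2 (-0.81, adjusted p = 0.03). The CLDN4 call was lost without siNS replicate 2 (0.0933) or 3 (0.115) or siNFKB2 replicate 1 (0.0745) or 3 (0.0883). The CDH1 calls were lost in 8 and 6 of 16 alternative analyses, up to adjusted p of 0.108 and 0.190, both without siNS replicate 3. The siNFKB2 call of CDH1 was also lost without siNFKB2 replicate 1 or 3 or siRELB replicate 2 or 3, and its siRELB call without siNS replicate 2 or any 1 siRELB library. CDH1 and CLDN4 were named after their values were seen. The part of epithelial markers in the DSP and PRR9 differences was not tested.

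Around DCLK1, 22 of 30 doublecortin-family and microtubule-associated protein genes were tested. After NFKB2 siRNA 4 rose and 6 fell (median -0.04), and after RELB siRNA 0 rose and 1 fell (median -0.06). The 10 siNFKB2 calls became 4 without siNFKB2 replicate 2, 5 without siNFKB2 replicate 3 and 6 without siNS replicate 3. DCLK2, the closest relative of DCLK1, fell from 7.24 to 3.65 CPM in siNFKB2 (log2 fold change -0.99, edgeR adjusted p = 0.00505), opposite in sign to DCLK1, and was 6.93 CPM in siRELB. MAP4, a microtubule-binding protein of most cells, fell from 430.8 ± 10.5 to 136.3 ± 86.7 CPM (SD, n = 3; -1.66, adjusted p = 0.00548), and its value was -2.32 without siNFKB2 replicate 1. MAP9 (0.64, adjusted p = 0.00429) and MARK3 (0.61, adjusted p = 0.00561) rose. The gene that fell after RELB siRNA was MARK2, a kinase of microtubule-associated proteins, from 54.6 to 30.7 CPM (-0.83, adjusted p = 0.0189), named after its value was seen. Its siRELB call was lost without siNS replicate 2 (0.0545) or 3 (0.126) or siRELB replicate 2 (0.129) or 3 (0.132). MARK2 was also among the 6 that fell after NFKB2 siRNA, to 38.0 CPM (-0.52, edgeR adjusted p = 0.0211). That call was lost without siNS replicate 3 (0.0879) or siNFKB2 replicate 2 (0.0957) or 3 (0.080). The knockdowns did not differ by the test (0.31, adjusted p = 0.135). Neuronal markers summed to 146.2 to 192.1 CPM in siNS, 106.1 to 129.7 in siNFKB2 and 171.7 to 176.1 in siRELB, with 5 of 8 tested and DCX at 0. Most of that sum was TUBB3, which fell from 86.0 to 30.7 CPM in siNFKB2 (-1.48, adjusted p = 0.000384), and NEFL (69.3 and 73.2 CPM, adjusted p = 0.697). SYP rose there from 2.63 to 5.77 CPM (1.14, adjusted p = 0.0219), a call lost without siNS replicate 3 (0.0574) or siNFKB2 replicate 2 (0.0833) or 3 (0.0547). These markers were named after their values were seen, and their part in the DCLK1 difference was not tested.

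Around MOB3B, all 35 MOB and Hippo pathway genes were tested. After NFKB2 siRNA, where MOB3B was not higher, 7 rose and 4 fell (median 0.16). The 11 calls became 5 without siNFKB2 replicate 2, 7 when siNFKB2 replicate 3 was left out and 6 when siNS replicate 3 was. FRMD6, an upstream Hippo regulator, rose from 545.7 to 1424 CPM (log2 fold change 1.38, edgeR adjusted p = 0.000466). ANKRD1 (1.08, adjusted p = 0.000749) and CCN2 (0.51, adjusted p = 0.00338), which are common targets of YAP and TEAD, rose as well, whereas the Hippo scaffolds NF2 (-0.47, adjusted p = 0.00583) and AMOT (-0.99, adjusted p = 0.00831) fell. After RELB siRNA 2 rose and 0 fell (median 0.13), ANKRD1 (302.0 to 499.2 CPM, 0.73, adjusted p = 0.0333) and WWC1 (0.50, adjusted p = 0.0402). ANKRD1 lost this call in 7 of 17 alternative analyses and WWC1, named after its value was seen, in 8 of 17, with adjusted p up to 0.185 without siNS replicate 3 and 0.232 without siRELB replicate 3. Both calls were lost without siNS replicate 2 or 3, siNFKB2 replicate 2 or 3 or siRELB replicate 2 or 3, and ANKRD1's also without siRELB replicate 1. MOB3A, a close relative of MOB3B also named after its values were seen, stood at 33.7, 45.9 and 24.5 CPM in siNS, siNFKB2 and siRELB. It rose in siNFKB2 (0.45, adjusted p = 0.0471) and did not pass the test in siRELB (-0.46, adjusted p = 0.157). MOB3A was higher in siNFKB2 than in siRELB by 0.90 (adjusted p = 0.00197), opposite in sign to MOB3B. Its siNFKB2 call was lost in 9 of 17 alternative analyses, including without any 1 library other than siNFKB2 replicate 1 and siRELB replicate 1, up to 0.160 without siNFKB2 replicate 2. TMEM255B, the relative of TMEM255A, stood at 13.6, 12.6 and 12.1 CPM in siNS, siNFKB2 and siRELB and did not pass the test (-0.10, adjusted p = 0.699, and -0.16, adjusted p = 0.668).

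**Figure D4:**
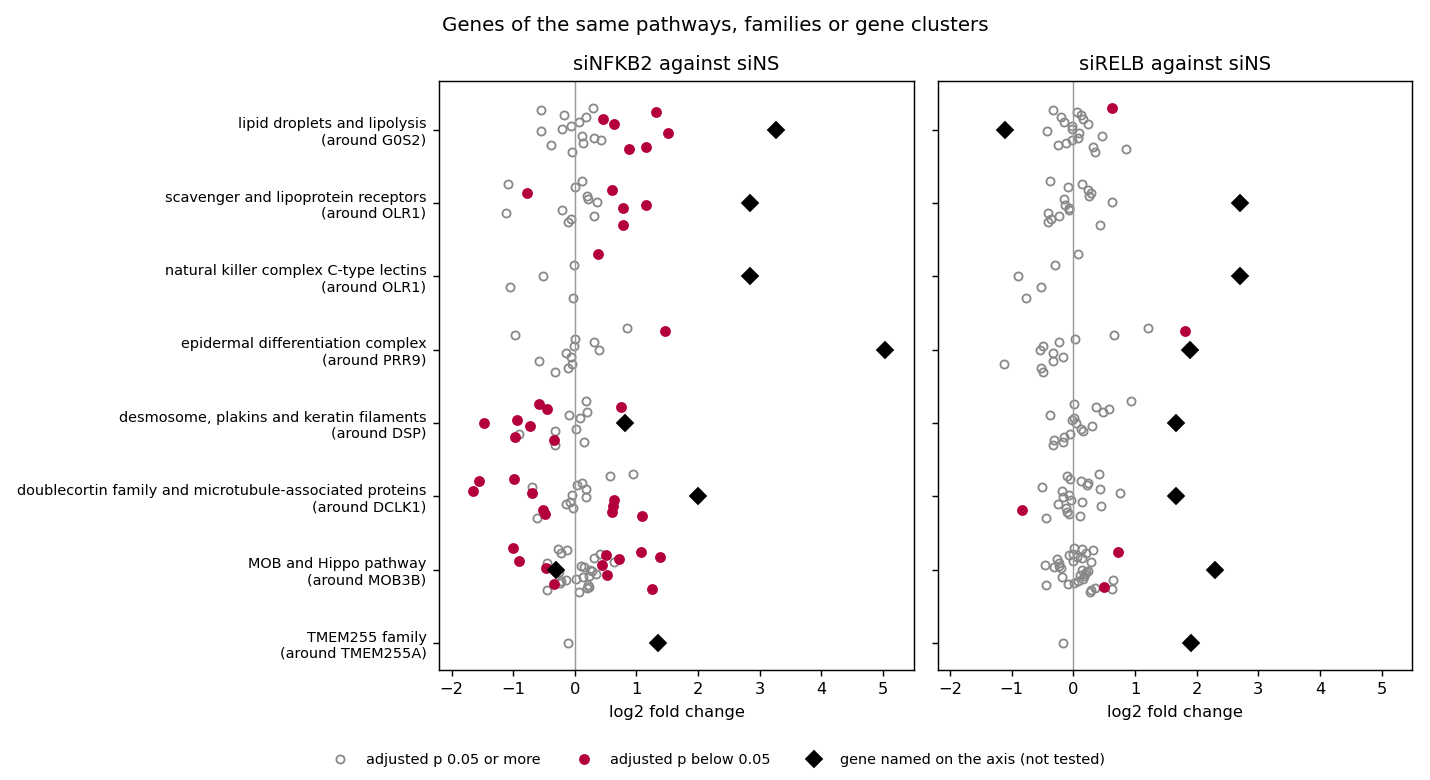
Fitted log2 fold change of every tested gene in the 8 lists (circles, filled where edgeR's adjusted p was below 0.05) and of the gene each list surrounds (diamonds, not tested), after NFKB2 siRNA at left and RELB siRNA at right. In siNFKB2 24 list genes rose and 18 fell, with keratin genes among those below 0, and in siRELB 4 rose and 1 fell.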

How the data were processed

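Each of the 9 libraries came as a table of read counts per gene, deposited by the authors without normalization. The submitters' processing notes name Trimmomatic 0.38, STAR 2.7.1a, Subread 1.6.4 and build GRCh38.p13. The annotation and the use of strand in counting were not given in the sources used here. Entries with a numeric suffix (at most 0.0369% of counts) were left as separate entries. Library depth was 15011789 to 19279572 counts, which sets the precision for low genes such as PRR9. Genes were kept by edgeR's filterByExpr (14815 of 44608), scaled by TMM and fitted in 1 model of 3 group means (edgeR 4.0.16, R 4.3.3, quasi-likelihood F test, Benjamini-Hochberg over all genes, threshold 0.05). The SE of a log2 fold change is its size divided by the square root of F. The fit was tested on simulated data. DESeq2 1.42.0, other filters and scalings, a replicate block and leaving out libraries were alternatives. The labels do not say what a replicate number marks. Between the knockdowns the deviations of same-numbered libraries correlated at 0.54, 0.17 and 0.45, so the blocked count is given beside that comparison. However, siRELB replicate 2 correlated better with siNFKB2 replicate 3 (0.26) than with siNFKB2 replicate 2, so pairing by number is not settled there either. The 7 genes and the lists were chosen with earlier results of these data known. Named beside the 7 genes were up to 5 tested genes per list with the smallest adjusted p in the comparisons with siNS, neighbours within 200 kb or nearest, and the 3 genes of most similar pattern (prior count of 2, mean of at least 1 CPM). Positions and exon lengths come from GENCODE 29 and promoters from RefSeq. Some genes of the lists are counted but not reported here by name.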

Additional observations from a re-analysis of the deposited data

How the results depend on the processing

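Of 378 alternative values for the fold changes of the 7 genes, 372 kept their direction and moved by less than the spread between replicates, 4 moved by more and 2 reversed. PRR9 in siRELB became 1.70 with a prior count of 2. Leaving out 1 library gave 1.78 to 2.46 for DCLK1 in siNFKB2, 1.01 to 2.12 and 1.56 to 2.69 for TMEM255A in siNFKB2 and siRELB, -0.20 to 0.41 for OLR1 between the knockdowns (negative without siNFKB2 replicate 2) and -0.46 to 0.018 for MOB3B in siNFKB2 (positive without siNS replicate 1). Leaving out 1 library gave 2220 to 4895 genes called for siNFKB2 against siNS (3869 with all), 15 to 1819 for siRELB against siNS (299) and 2188 to 4917 between the knockdowns (3934). Among list genes the ranges were 22 to 52, 0 to 21 and 24 to 45. For siRELB against siNS DESeq2 called 865 genes and 12 list genes, and a fit of only the 6 libraries compared 129 and 3. An alternative that was chosen after seeing the data left out the 3 libraries numbered 1 and gave 6711, 3390 and 6600 genes and 65, 37 and 70 list genes. With the replicate block they were 5944, 1570 and 6054 genes, and 23 and 67 list genes for siRELB against siNS and between the knockdowns. Same-numbered libraries of siNS and a knockdown correlated in their deviations at 0.58, 0.05 and 0.09 for siNFKB2 and 0.59, 0.38 and 0.04 for siRELB, so the labels and the data do not settle whether the numbers pair them, and siNS replicate 2 correlated best with siNFKB2 replicate 3 (0.57). The cause of these shifts was not tested. For the other named genes 1786 of 1911 alternative values kept their side of the threshold, 56 lost a call, 69 gained one and 0 reversed. Depth limits PRR9, CAMK1G and most genes of the epidermal differentiation complex.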
